A study of Mus musculus with 6 samples.

Results

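Expression of 35 listed genes that act in the G2 phase and in mitosis was followed in the presomitic mesoderm of mouse embryos that lose Taf10 in the mesoderm, against control embryos. Members were the probe sets of the deposited table whose only gene symbol in the platform's annotation is on that list, and 34 of the 35 genes had one, out of 15153 genes in all. Top2a had 2 probe sets, which makes 35 probe sets of 16311 with a single symbol, and Ccnb1 (cyclin B1) is not analysed here. Mutant pools came from TCre/+;Taf10flox/flox embryos at embryonic day 9.5, and control pools from embryos labelled WT that carried Taf10Flox/+ or Taf10flox/flox, so every embryo of either group had at least 1 floxed Taf10 allele. The labels do not say whether control embryos carried the Cre. T-Cre places the Cre recombinase under regulatory sequence of T (Brachyury), which is active in the primitive streak and early mesoderm, and the alleles of other cells in the dissected tissue may remain intact. Each of the 6 arrays read a pool of 3 presomitic mesoderms of 17 to 19 somites, with 3 pools a genotype, and values below are log2 of the deposited intensity.

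Cells that have copied their DNA enter mitosis when CDK1, joined to cyclin A or B, is switched on together with the Polo and Aurora kinases. The chromosomal passenger complex and the spindle checkpoint then hold anaphase back until kinetochores are attached, and the anaphase-promoting complex ends mitosis by destroying cyclins and other proteins. Most genes for these proteins are transcribed in late S phase and G2, held down in G1 by the DREAM complex and switched on by MYBL2 and FOXM1 through the MuvB core. The presomitic mesoderm is a tissue of dividing progenitors. In a pooled tissue, fewer cycling cells and less of a transcript in each cycling cell cannot be told apart.

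In the mutant pools, the measured G2 and mitosis genes averaged within 0.32 log2 units of their control means. Of the 34, Nusap1 rose, 0 fell and 33 did not pass (limma, adjusted p under 0.05 over all single-symbol probe sets). The single call among 34 is 2.94%, beside 2.96% of all genes called higher, and 2.96% of all genes were called lower. At an unadjusted p under 0.05, limma gave 2 members higher and 2 lower, where the background was 11.7% higher and 10.9% lower. Log2 changes, mutant minus control, ran from -0.30 for Nuf2 to 0.32 for Nusap1. Their median was -0.09, with 25 of 34 negative (73.5%), beside a median of 0.03 and 40.7% negative over all genes. That background depends on level and scaling. With probe sets under the 40th percentile of level left out, the median over all genes was -0.01. With quantile normalization, 22 members were negative and their median was -0.04, beside 0.01 over all genes. The 95% intervals of 29 members lay inside 0.5 log2 units either way, and the other 5 (Incenp, Bub1b, Ttk, Nuf2 and Prc1) reached a lower bound between -0.62 and -0.51. A change of that size was therefore not shown to be absent in those 5.

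**Figure D1:**
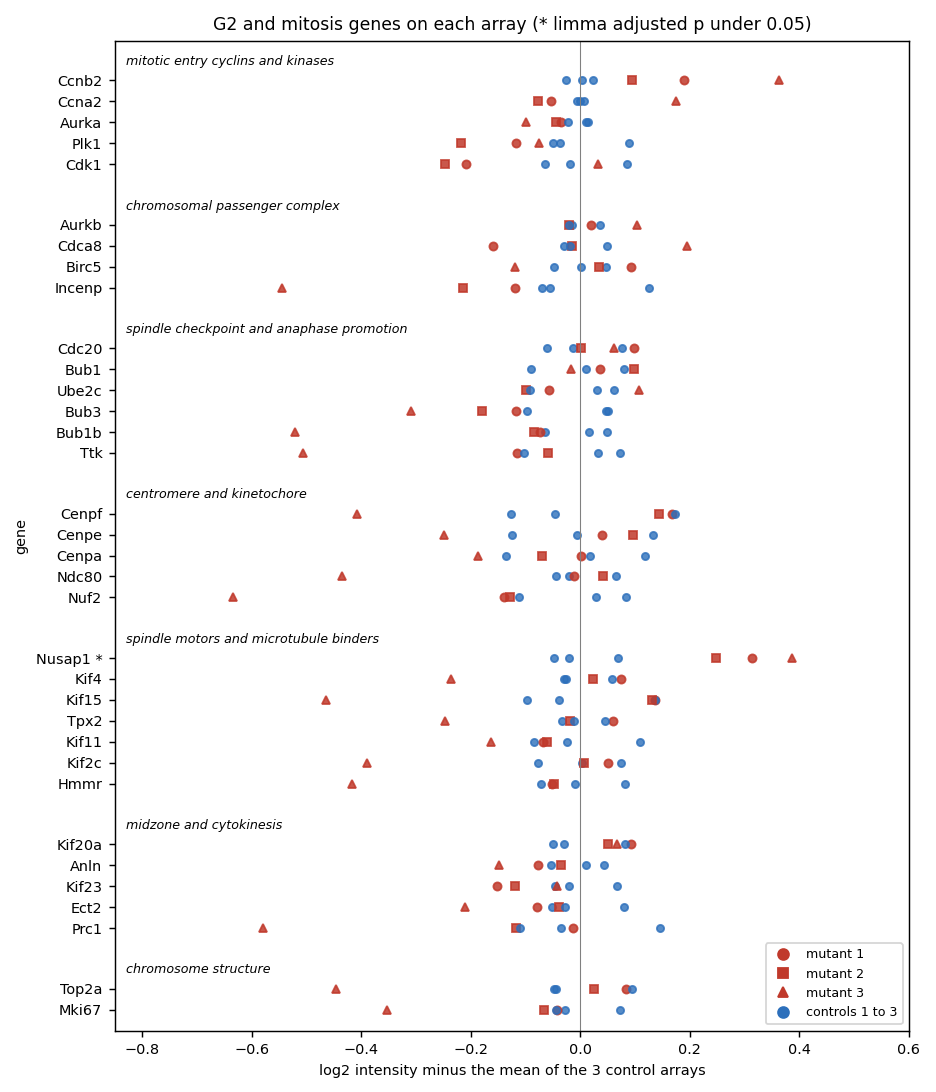
Log2 intensity of the 34 measured G2 and mitosis genes relative to the control mean (x axis), with genes grouped by role down the page. Red symbols are mutant arrays 1 to 3 (circle, square, triangle) and blue circles control arrays; a star marks an adjusted p under 0.05, which Nusap1 alone has among these genes, and the triangles of mutant 3 reach from -0.63 for Nuf2 to 0.39 for Nusap1.

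The promoters of these genes are known for a pair of short elements, and both were searched in RefSeq windows of 300 bases, 250 before and 50 after the annotated start (GRCm38.p6). TTTGAA is the core of the cell cycle genes homology region (CHR), which MuvB binds, and CCAAT is the core bound by NF-Y. A window was found by gene ID for 29 of the 34 genes. TTTGAA, on either strand, was in 24 of 29 member windows (82.8%), beside 18.1% of the windows of 27025 genes. CCAAT was in 22 of 29 (75.9%), beside 37.9%, and both were in 20 of 29 (69.0%), beside 7.12%. In 1 member window, that of Cdca8, a match to each motif shared a base, and a match describes letters and not a bound site. The windows of Nusap1, Ccnb2, Bub3 and Nuf2 are printed because their genes have the smallest p-values among the array-by-array genes with a window, with Nusap1 and Ccnb2 higher in mutant pools and Bub3 and Nuf2 lower. Each is given 5′ to 3′ on the gene's strand, with matches to either motif on either strand in capitals. Their places are chr2:119618048-119618347, plus strand, for Nusap1, chr9:70421505-70421804, minus strand, for Ccnb2, chr7:131560120-131560419, plus strand, for Bub3, and chr1:169531415-169531714, minus strand, for Nuf2.
Nusap1: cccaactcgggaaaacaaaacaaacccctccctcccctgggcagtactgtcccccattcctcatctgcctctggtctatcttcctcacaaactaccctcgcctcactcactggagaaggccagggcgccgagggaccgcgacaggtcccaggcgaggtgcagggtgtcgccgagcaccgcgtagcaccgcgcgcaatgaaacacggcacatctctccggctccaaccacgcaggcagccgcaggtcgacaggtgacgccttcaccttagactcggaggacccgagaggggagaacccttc
Ccnb2: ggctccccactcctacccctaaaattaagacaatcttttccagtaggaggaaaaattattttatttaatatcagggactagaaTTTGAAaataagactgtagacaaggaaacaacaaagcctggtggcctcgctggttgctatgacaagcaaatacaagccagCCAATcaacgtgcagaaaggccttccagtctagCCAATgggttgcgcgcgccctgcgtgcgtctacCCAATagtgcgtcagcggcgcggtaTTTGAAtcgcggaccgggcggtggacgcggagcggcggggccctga
Bub3: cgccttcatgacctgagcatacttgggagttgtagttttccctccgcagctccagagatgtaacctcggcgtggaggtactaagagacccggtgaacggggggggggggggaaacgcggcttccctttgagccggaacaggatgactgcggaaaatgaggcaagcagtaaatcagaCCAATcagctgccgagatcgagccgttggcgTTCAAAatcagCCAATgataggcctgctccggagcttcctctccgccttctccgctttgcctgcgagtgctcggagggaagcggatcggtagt
Nuf2: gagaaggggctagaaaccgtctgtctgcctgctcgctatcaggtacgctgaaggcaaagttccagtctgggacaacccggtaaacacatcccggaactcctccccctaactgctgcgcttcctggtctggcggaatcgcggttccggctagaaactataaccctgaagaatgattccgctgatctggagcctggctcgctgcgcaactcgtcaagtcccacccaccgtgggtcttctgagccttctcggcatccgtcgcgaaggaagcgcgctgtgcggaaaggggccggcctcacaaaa

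Ccnb2 held 3 CCAAT cores, with first bases at -87, -54 and -21 from the start, and TTTGAA at 5 and at -167. Bub3 held CCAAT at -74 and -32 and TTTGAA on the other strand at -43. Nusap1 and Nuf2, the genes with the highest and the lowest log2 change among all 34, had neither set of letters in this window. Birc5 was the remaining window with neither, and its log2 change was 0.00. Among windows with TTTGAA, 21 of 24 genes had a negative change, with a median of -0.11. Of the 5 without it, 2 were negative, with a median of 0.00. For CCAAT, 18 of 22 genes with it were negative (median -0.10), and 5 of 7 without it (median -0.09). Both splits were made after the changes were known and carry no test.

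**Figure D2:**
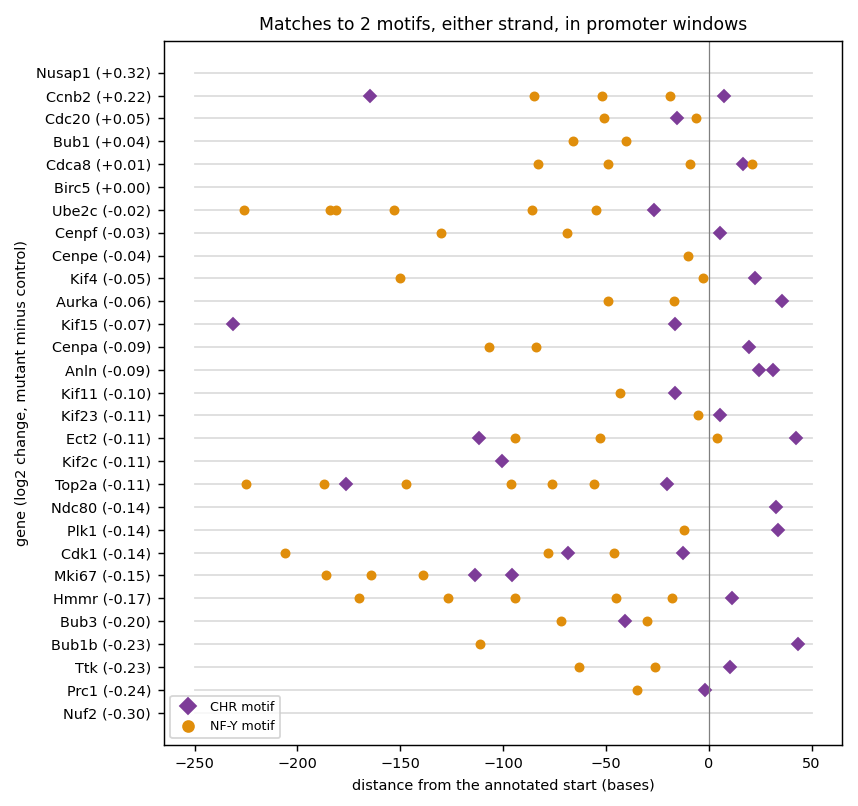
Positions of matches to the CHR motif (purple diamonds) and the NF-Y motif (orange circles) on either strand, as distance in bases from the annotated start (x axis), for the 29 genes with a window. Genes run from the highest log2 change (Nusap1, 0.32) to the lowest (Nuf2, -0.30), and neither of these rows holds a match.

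The proteins that trigger entry into mitosis gave 5 measured genes, and 0 of them passed limma's threshold, with 1 at an unadjusted p under 0.05. Ccnb2, which encodes cyclin B2, stood at 12.36, 12.26 and 12.53 in mutant pools 1, 2 and 3, against 12.17, 12.14 and 12.19 in the controls. All 3 mutant values lay above the controls, and mutant 3 was highest. Its log2 change was 0.22 (SE 0.08), or 116% of control, with a limma adjusted p of 0.164 (n = 3 pools each). An exact permutation test on these values (two-sided) had p = 0.1, which is the lowest p this design can reach. Ccna2, the gene of cyclin A2, averaged 12.43 ± 0.14 in mutant and 12.41 ± 0.01 in control pools (SD, n = 3 each), a difference of 0.01, with mutants 1 and 2 below the controls and mutant 3 above them. Cdk1, the kinase itself, read 11.42, 11.38 and 11.66 in mutant pools, against 11.71, 11.61 and 11.56 in controls. Mutants 1 and 2 lay below every control for Cdk1 and mutant 3 lay among them. The log2 change of Cdk1 was -0.14 (95% interval -0.35 to 0.07). Plk1 (Polo-like kinase 1) at -0.14 and Aurka (Aurora A, which builds spindle poles) at -0.06 had all 3 mutant values below the controls without passing.

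The chromosomal passenger complex, which corrects kinetochore attachments and later drives cleavage, had 4 genes measured, of which 0 passed limma's threshold and 1 had an unadjusted p under 0.05. Incenp, its scaffold, read 9.37, 9.27 and 8.94 in mutant pools, against 9.61, 9.42 and 9.43 in control pools. The groups did not overlap and mutant 3 was lowest. The log2 change of Incenp was -0.29 (SE 0.12), or 81.6% of control (limma adjusted p = 0.186). The kinase gene Aurkb (0.03) and the genes of its other partners survivin and borealin, Birc5 (0.00) and Cdca8 (0.01), had intervals that all lay between -0.21 and 0.23.

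Checkpoint and anaphase genes numbered 6, and 0 passed limma's threshold, with 1 lower at an unadjusted p under 0.05. Bub3, a WD-repeat protein that brings BUB1 and BUBR1 to kinetochores, read 11.27, 11.21 and 11.08 in mutant pools, against 11.44, 11.44 and 11.29 in controls. Mutant and control values of Bub3 did not overlap, although mutant 1 and control 3 were close. Its log2 change was -0.20 (SE 0.08), or 86.9% of control (limma adjusted p = 0.175). Bub1b, which encodes BUBR1, the inhibitor of the anaphase-promoting complex, read 10.46, 10.45 and 10.01 in mutant pools and 10.47, 10.58 and 10.55 in controls. Mutant 3 alone lay far below. The change was -0.23 (SE 0.12, limma adjusted p = 0.314), and -0.08 without mutant 3. Ttk, the checkpoint kinase MPS1, read 9.79, 9.85 and 9.40 in mutant pools against 9.94, 9.98 and 9.80 in controls, with a change of -0.23 (SE 0.12, limma adjusted p = 0.311) and of -0.09 without mutant 3. Bub1, the kinase that marks centromeric chromatin, read 11.94, 12.00 and 11.89 in mutant pools and 11.81, 11.98 and 11.91 in controls. Cdc20, the activator of the anaphase-promoting complex, read 10.83, 10.73 and 10.79 in mutant pools and 10.81, 10.72 and 10.67 in controls. The groups overlapped for both, with changes of 0.04 (95% interval -0.13 to 0.20) for Bub1 and 0.05 (-0.10 to 0.21) for Cdc20. For Ube2c, the ubiquitin-conjugating partner of that complex, the change was -0.02.

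All 5 centromere and kinetochore genes had negative changes, of which 2 stayed negative without mutant 3, and 0 passed limma's threshold, with 0 also at an unadjusted p under 0.05. Nuf2, part of the NDC80 complex that grips microtubules, read 9.82, 9.83 and 9.32 in mutant pools, against 9.85, 10.04 and 9.99 in controls. Mutants 1 and 2 lay just under control 1 and mutant 3 far below. The log2 change of Nuf2 was -0.30 (SE 0.14, limma adjusted p = 0.244), and -0.13 without mutant 3. Its partner Ndc80 changed by -0.14 with all arrays and by 0.02 without mutant 3. Changes were -0.09 for Cenpa, the centromeric histone H3 variant, -0.04 for Cenpe, a kinetochore motor, and -0.03 for Cenpf, a large kinetochore protein. Without mutant 3, Cenpe was at 0.07 and Cenpf at 0.16.

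Among 7 spindle motor and microtubule-binding genes, Nusap1 rose, 0 fell and 6 did not pass. Nusap1, which bundles spindle microtubules near chromatin, read 10.88, 10.81 and 10.95 in mutant pools, against 10.54, 10.63 and 10.52 in control pools. Every mutant value was above every control, and mutant 3 was highest. Nusap1 rose 1.24-fold (log2 0.32, SE 0.07, limma adjusted p = 0.0390, n = 3 pools each). An exact permutation test (two-sided) again had p = 0.1. The call was lost without mutant 1 (adjusted p = 0.0958), mutant 2 (0.0745), control 1 (0.162), control 2 (0.125) or control 3 (0.127), and held without mutant 3 (0.0208), while the change itself stayed between 0.28 and 0.35. The other 6 had changes from -0.17 to -0.05, namely Hmmr (-0.17), Kif2c (-0.11), Kif11 (-0.10), Tpx2 (-0.07), Kif15 (-0.07) and Kif4 (-0.05). Without mutant 3, 4 of these 6 turned positive, namely Kif15 (0.13), Kif4 (0.05), Kif2c (0.03) and Tpx2 (0.02). Kif11 is the motor that pushes spindle poles apart, with Kif15 as a second motor of like function, Kif2c depolymerises microtubules, Kif4 is a chromokinesin, and Tpx2 activates Aurora A.

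Cytokinesis genes, which organise the spindle midzone and the contractile ring, gave 0 calls of 5 by limma, with 0 at an unadjusted p under 0.05. Prc1, the crosslinker of midzone microtubules, read 9.75, 9.64 and 9.18 in mutant pools and 9.73, 9.91 and 9.65 in controls. Mutants 1 and 2 lay within or near the control range and mutant 3 well below it. Its change was -0.24 (SE 0.15, limma adjusted p = 0.374), and -0.07 without mutant 3. Kif20a, a midzone motor, read 11.54, 11.50 and 11.52 in mutant pools and 11.40, 11.53 and 11.42 in controls, a change of 0.07 (95% interval -0.08 to 0.22). Values were -0.11 for Kif23, the motor of centralspindlin, -0.11 for Ect2, the RhoA activator, and -0.09 for Anln, which encodes the ring scaffold anillin.

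Of the chromosome structure genes, Mki67 (Ki-67, a coat of mitotic chromosomes and a common marker of cycling cells) averaged 11.62 ± 0.17 in mutant and 11.77 ± 0.06 in control pools (SD, n = 3 each). The difference of -0.15 (SE 0.09) did not pass (limma adjusted p = 0.373), and it was -0.05 without mutant 3. Top2a, the topoisomerase that untangles sister chromatids, changed by -0.11 (SE 0.14) on probe set 10390707, which stood for the gene. The second Top2a probe set (10390746) read 6.94, 7.07 and 5.84 in mutant pools, against 6.96, 7.17 and 6.83 in controls, a change of -0.37 (SE 0.29) that did not pass either. On both probe sets mutant 3 was lowest of the 6 arrays and mutants 1 and 2 lay within the control range.

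Across the 34 genes, mutant and control values did not overlap in 8. Ccnb2 and Nusap1 lay higher in mutant pools, 5.88% of the members beside 17.2% of all genes. Aurka, Plk1, Incenp, Bub3, Bub1b and Nuf2 lay lower, 17.6% beside 15.1% of all genes.

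The widest differences among mutant pools came from mutant 3. Those of more than 0.3 log2 units from the mean of mutants 1 and 2 were all downward, while smaller ones ran in both directions. Mutant 3 was below both other mutants for 23 of 34 genes (67.6%) and above both for 9, beside 33.1% below and 55.5% above over all genes. It lay more than 0.3 below the mean of mutants 1 and 2 for 12 members (35.3%, beside 11.8% of all genes) and more than 0.1 above it for 7 (20.6%, beside 42.9%), with both limits set after the values were seen. Those far below were Kif15 (-0.60), Cenpf (-0.56), Prc1 (-0.51), Top2a (-0.50), Nuf2 (-0.50), Ndc80 (-0.45), Bub1b (-0.44), Ttk (-0.42), Kif2c (-0.42), Incenp (-0.38), Hmmr (-0.37) and Cenpe (-0.32), and they held 4 of the 5 centromere and kinetochore genes and 0 of the 5 entry genes. The 7 above were Cdca8 (0.28), Cdk1 (0.26), Ccna2 (0.24), Ccnb2 (0.22), Ube2c (0.19), Aurkb (0.10) and Nusap1 (0.10), among them 3 of the 5 entry genes. For 15 of the 34 genes, mutant 3 and the mean of mutants 1 and 2 lay on opposite sides of the control mean. Cenpf showed this with 0.16 in mutants 1 and 2 and -0.41 in mutant 3, and Cdk1 with -0.23 in mutants 1 and 2 and 0.03 in mutant 3. The spread of the members' changes from control was 0.27 (SD over 34 genes) in mutant 3 and 0.11 in the mean of mutants 1 and 2, beside 0.33 and 0.19 over all genes. The all-gene shares and spreads given for mutant 3 take in low-level probe sets, while all 34 members stood above the 40th percentile of level (7.70). Shares among genes at the members' level were not computed.

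**Figure D3:**
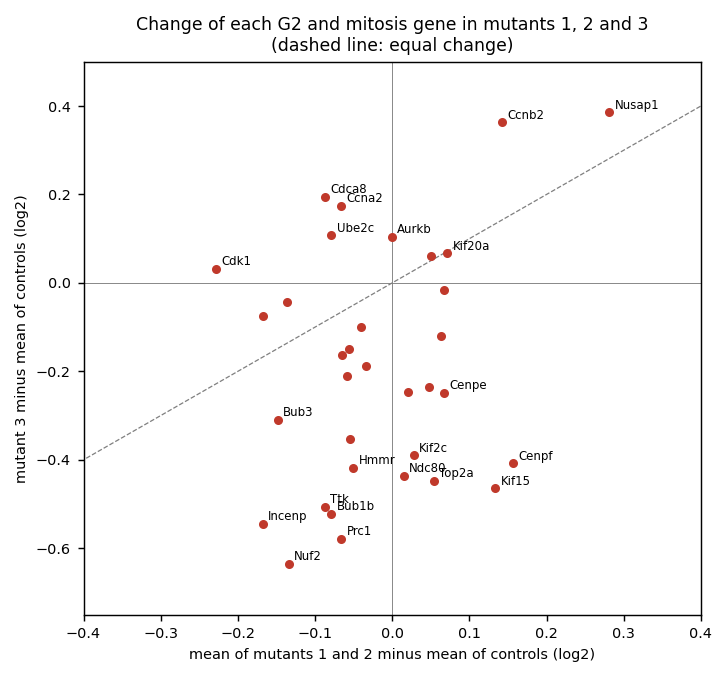
Each point is 1 of the 34 genes, placed by the mean of mutants 1 and 2 minus the control mean (x axis, log2) and by mutant 3 minus the control mean (y axis, log2), with equal change on the dashed line. Nuf2 lies at -0.13 and -0.63, Cenpf at 0.16 and -0.41, Cdk1 at -0.23 and 0.03, and Nusap1 at 0.28 and 0.39.

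Over all genes, a principal component analysis also set mutant 3 apart, with a first-component score of 28.6 against 3.40 and 3.91 for mutants 1 and 2 and -15.5 to -7.03 for controls (61.6% of variance). The summed intensity of 6 of 7 listed erythroid markers was 4093 in mutant 3, within a mutant range of 4093 to 16724 and beside a control range of 9374 to 22583, and that of 6 endothelial markers ran from 549 to 1280 in mutant and from 671 to 1911 in control pools. The part of these markers in the results was not tested. Xist, transcribed in female cells, read 12.53, 12.13 and 11.35 in mutant pools and 12.57, 12.03 and 6.32 in controls, low in control 3 alone. Presomitic markers were present, with Tbx6 at 12.47 to 12.77 in mutant and 11.90 to 12.09 in control pools, while T is not analysed here. Of 11 measured presomitic markers, 2 rose (Tbx6 by 0.63 and Hes7 by 0.52 on the log2 scale), 2 fell (Rspo3 and Cyp26a1, -0.74 each) and 7 did not pass. Over all genes, limma called 2.96% higher and 2.96% lower. Of the Taf10 probe sets, 10365288 fell by 0.37 on the log2 scale (limma adjusted p = 0.0400) and 10566525 gave 0.11 (adjusted p = 0.530), and which part of the transcript each reads is not known here.

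Without mutant 3, the members' median change was -0.05 and 20 of 34 were negative. Nusap1 was then still higher and 0 members were called lower by limma, beside 6.41% of all genes higher and 6.43% lower. Cdk1 was -0.23 (SE 0.06, limma adjusted p = 0.0505) without mutant 3, and passed at -0.26 (SE 0.06, limma adjusted p = 0.0374) with control 3 left out as well, where 7.40% of all genes were called higher and 6.62% lower. The median level of the list on each array, as the deviation of each gene from its mean over the 6 arrays, was 0.03, 0.01 and -0.15 in mutants 1, 2 and 3, against 0.04, 0.08 and 0.00 in controls 1, 2 and 3. Mutants 1 and 2 thus lay inside the range of the controls on this measure, and mutant 3 below it.

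**Figure D4:**
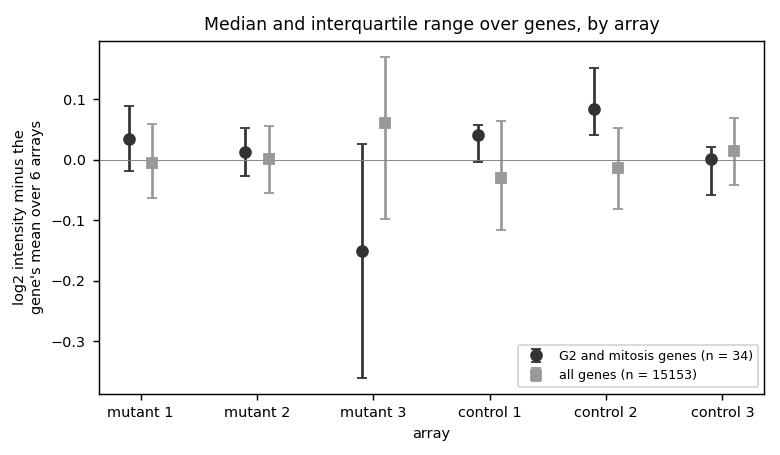
Median (points) and interquartile range (bars) over genes of log2 intensity minus the gene's mean over 6 arrays, for the 34 G2 and mitosis genes (dark circles) and all 15153 genes (grey squares) on each array (x axis). Mutant 3 is the array where the 2 lists separate most, at -0.15 for the members and 0.06 for all genes, which take in probe sets of lower level than any member.

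A further 112 of 120 listed genes of mitosis outside the members were measured, of which 4 rose, 2 fell and 106 did not pass (median -0.09, 78 negative). The background for the calls is again 2.96% of all genes in each direction. For the sign it is 40.7% of all genes negative, a share that depends on level as said above. Zwilch, a kinetochore protein that recruits dynein through the RZZ complex, read 10.66, 10.66 and 10.58 in mutant pools, against 10.09, 10.01 and 10.13 in controls. It rose 1.47-fold (log2 0.55, SE 0.07, limma adjusted p = 0.00677), with no overlap between groups. Cenpt, a DNA-bound anchor of the outer kinetochore, read 10.05, 9.97 and 10.12 in mutant pools and 9.66, 9.57 and 9.63 in controls, and rose 1.34-fold (log2 0.43, SE 0.07, limma adjusted p = 0.0145). Gtse1, a microtubule-binding protein of G2 and mitosis and a p53 target, read 10.20, 10.18 and 10.33 in mutant pools and 9.84, 9.78 and 9.83 in controls, and rose 1.33-fold (log2 0.42, SE 0.07, limma adjusted p = 0.0157). Fam83d, which anchors casein kinase 1 on the spindle, read 9.58, 9.55 and 9.84 in mutant pools and 9.24, 9.24 and 9.29 in controls, and rose 1.32-fold (log2 0.40, SE 0.09, limma adjusted p = 0.0389). Thus 2 of the 31 kinetochore and checkpoint genes and 2 of the 20 centrosome and spindle genes outside the members were higher, and 0 of either were called lower by limma, with 3 and 2 lower at an unadjusted p under 0.05.

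Pbk, a mitotic kinase, read 9.32, 9.22 and 8.93 in mutant pools against 9.69, 9.66 and 9.53 in controls, and fell to 72.3% of control (log2 -0.47, SE 0.11, limma adjusted p = 0.0445). Anapc5, a scaffold subunit of the anaphase-promoting complex, read 11.08, 10.99 and 10.82 in mutant pools against 11.36, 11.27 and 11.30 in controls, and fell to 78.8% of control (log2 -0.34, SE 0.08, limma adjusted p = 0.0491). It was the single call among 16 genes of that complex and its regulators, where Anapc16 gave -0.25 (limma adjusted p = 0.0837). The 20 cohesin, condensin and separase genes had the lowest median of the groups, -0.16, with 17 negative and 0 called by limma. At an unadjusted p under 0.05 there was 1, Ncapd2 (-0.19) of condensin I, followed by the cohesin gene Smc1a (-0.29). Without mutant 3, Ncapd2 was at -0.14 and Smc1a at -0.13. Among 13 entry regulators limma called 0, with 2 lower at an unadjusted p under 0.05, the CDK-activating phosphatase gene Cdc25a (-0.31) and Ensa (-0.30), an inhibitor of the phosphatase PP2A-B55. The lowest p-value after Pbk among 12 genes of cytokinesis and exit was that of Cdkn3 (0.14, limma adjusted p = 0.232). Without control 1, limma called 0 of the 112 genes, beside 0.132% of all genes higher and 0.139% lower. Without control 2 it also called 0, beside 0.251% higher and 0.191% lower, and without control 3 it called Zwilch alone, beside 1.12% and 1.02%. Calls over all genes thus fell under these settings as well. Without mutant 1 there were 3 higher and 2 lower of 112 (1.41% and 1.70% of all genes), without mutant 2 there were 3 and 0 (1.18% and 1.16%), and without mutant 3 there were 6 and 5 (6.41% and 6.43%). The calls without mutant 3 took in Spag5, a spindle protein (0.51, adjusted p = 0.00240), and Spc25 of the NDC80 complex (0.21, adjusted p = 0.0400), and, as lower, Nsl1 (-0.29), Pmf1 (-0.28) and Cdc26 (-0.22).

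**Figure D5:**
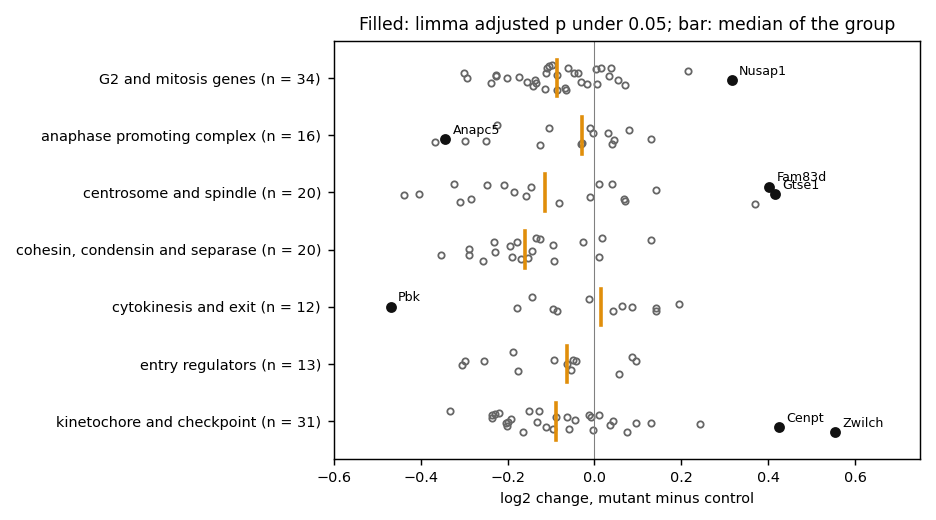
Log2 change, mutant minus control (x axis), of the 34 G2 and mitosis genes and of 112 other mitosis genes by role (rows), with filled points at an adjusted p under 0.05 and orange bars at each median. Medians lie between -0.16 (cohesin, condensin and separase) and 0.02 (cytokinesis and exit), and named points are the 7 genes that passed.

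Genes that switch the members on and off were read from a list of 18 for DREAM, MuvB, MYBL2, FOXM1 and NF-Y, of which 1 rose, 1 fell and 16 did not pass (median -0.01). The background for the counts of this and the next lists is 2.96% of all genes each way, or 11.7% higher and 10.9% lower at an unadjusted p under 0.05. Lin9, a MuvB subunit, read 9.24, 9.29 and 9.27 in mutant pools against 8.94, 8.82 and 8.90 in controls, and rose 1.30-fold (log2 0.38, SE 0.06, limma adjusted p = 0.0183). Nfyc, a subunit of NF-Y, read 10.78, 10.72 and 10.77 in mutant pools against 11.22, 11.11 and 11.07 in controls, and fell to 77.0% of control (log2 -0.38, SE 0.07, limma adjusted p = 0.0217). Groups overlapped for neither gene. The calls of both were lost without mutant 2 or any 1 of the controls, and that of Nfyc also without mutant 1 (adjusted p from 0.0538 to 0.113). Of 9 measured genes that p53 induces in G2 arrest, 3 rose (Ccng1, Zmat3 and Gtse1) and 0 fell by limma, with 4 higher and 0 lower at an unadjusted p under 0.05, and Cdkn1a is not analysed here. Ccng1, the gene of cyclin G1, read 12.37, 12.42 and 12.52 in mutant pools, against 11.40, 11.27 and 11.61 in controls, and rose 2.01-fold (log2 1.01, SE 0.10, limma adjusted p = 0.00462). Zmat3, a p53-induced zinc finger gene, read 8.89, 8.91 and 9.01 in mutant pools, against 8.37, 8.19 and 8.47 in controls, and rose 1.51-fold (log2 0.59, SE 0.09, limma adjusted p = 0.0118), a call lost without control 1 (0.0706) or control 2 (0.0639). By comparison, 40 S phase genes had a median of -0.16 with 6 called lower and 0 higher by limma (17 lower and 2 higher at an unadjusted p under 0.05), beside -0.09 with 0 lower and 1 higher of 34 for the G2 and mitosis genes. The 6 were the replication factor genes Gins1 (-0.87), Mcm3 (-0.42), Mcm10 (-0.37) and Mcm7 (-0.34), the cyclin E gene Ccne1 (-0.29) and the ribonucleotide reductase gene Rrm2 (-0.29). Of the 6 S phase calls, 0 held without control 1, control 2 or control 3, 3 without mutant 1 and 1 without mutant 2. The difference between the lists was not tested.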

How the data were processed

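The authors' deposited table holds intensity values made with RMA, per the submitters' processing notes. RMA subtracts background, brings arrays to a common distribution and combines the probes of a set. No version or filter is given. Biotinylated single-strand cDNA was made from 150 ng RNA, per the labels' protocols. The authors' values are linear, with array medians from 307.9 to 317.5, and were turned into log2 with no further scaling or filter.

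Of 18064 probe sets, 16311 had 1 gene symbol, 734 several and 1019 none here. The gene ID of 16284 matched RefSeq (GRCm38.p6), and 0 symbols changed. The model was fitted in R 4.3.3 with limma 3.58.1 (lmFit and eBayes, 3 mutant against 3 control arrays), with Benjamini-Hochberg adjustment over 16311 and a threshold of 0.05. The probe set with the highest mean stood for a gene. On simulated arrays, the fit recovered 8 of 50 probe sets changed by 0.3 log2 units (16%). It recovered 22 of 50 changed by 0.5, 45 of 50 by 1 and 48 of 50 by 1.5, with 6 false calls. Changes as small as 0.3 were thus mostly missed there. Those arrays had independent normal noise with no array set apart, and only 50 of 16311 probe sets were changed at each size. In the deposited data limma called 972 of 16311, so the recovered shares need not hold for them. P-values measure the spread between pools that the labels call biological replicates, and the number of arrays limits precision.

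Described array by array were members with an adjusted or unadjusted p under 0.05 and the 5 highest and 5 lowest changes; of other lists, genes that passed and up to 2 per role with the smallest p were to be named, not all array by array. Cdk1, the second Top2a probe set, Mki67 and genes named for mutant 3 or for left-out arrays were added after their values were seen. The members and lists were chosen with earlier results of these data known. Alternatives were a replicate block, quantile normalization, a filter on level, all probe sets, a trended prior, averaged probe sets and arrays left out. Probe sets with several symbols were not used.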

Additional observations from a re-analysis of the deposited data

How the results depend on the processing

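The number of arrays limits these results. The members' median change of -0.09 stayed negative, between -0.12 and -0.04, under quantile normalization and with arrays left out. The replicate block, the filter on level, all probe sets and the trended prior leave the members' changes as they are. Those settings could therefore not move the median, and averaged probe sets can alter only Top2a. With 1 array left out in turn, 0 to 1 members were called higher and 0 lower, 0 to 6 other mitosis genes were called higher, and 0 to 5 lower. With control 3 and mutant 3 left out together, 1 member (Cdk1) and 6 other mitosis genes were called lower, where 6.62% of all genes were. In that setting, 1 member (Nusap1) and 5 other mitosis genes were called higher, where 7.40% of all genes were. Over all probe sets 1 other mitosis gene was lower. With 1 array left out, the change of Bub1 (0.04) ran from -0.0062 without control 1 to 0.0792 without control 2. The replicate numbers were not taken as pairs in the main fit. Same-numbered mutant and control arrays deviated together with r of 0.13, 0.08 and 0.32, and different-numbered ones with r from -0.28 to 0.20. Whether the numbers mark pairs was not tested. With the replicate block, 0 members were called higher (Nusap1 adjusted p = 0.0576) and 4 other mitosis genes lower, where 3.61% of all genes were called higher and 3.54% lower, and no other call named for these lists was lost. Quantile normalization ended the calls of Fam83d (adjusted p = 0.0501) and of the S phase gene Ccne1 (0.0540), use of all probe sets those of Anapc5 (0.0523) and Rrm2 (0.0510), and averaged probe sets that of Nfyc (0.0603).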
